A study of Mus musculus with 12 samples.

Results

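Focal adhesion and actin crosslinker genes were examined by RNA-seq in NIH 3T3 cells, immortalized fibroblasts derived from mouse embryos, with and without depletion of Lap2. The 10 genes were chosen by name, with earlier results of these data known. They were matched by symbol to the Ensembl identifiers of the count files, 10 of 49671 gene identifiers per library. They are the integrin subunits Itga5 and Itgb1, the linkers Tln1, Vcl and Zyx, the crosslinkers Actn1, Actn4, Flna and Palld, and Filip1l. Cells received control siRNA or a Lap2 siRNA, which targets the membrane-anchored and the nucleoplasmic Lap2 isoforms alike, so the data do not separate the isoforms. They were kept in 0.3% FBS overnight (serum-starved), or were starved and then given 15% FBS for 45 min (serum-stimulated). The 4 groups held 3 libraries each, 12 in all, from a single cell line without any other genetic change in the labels. Neither the labels nor the methods say that the 3 libraries of a group came from separate cultures, so the p-values measure the spread between these libraries, which may be technical. The comparisons asked how serum changed each gene with either siRNA, how Lap2 siRNA changed it in either serum condition, and whether the serum responses differed.

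Focal adhesions are the sites at which fibroblasts grip the extracellular matrix. Integrin α and β subunits pair into receptors that bind matrix proteins outside the cell, and talin, vinculin and zyxin connect them on the inside to actin filaments, which α-actinins, filamin and palladin tie into bundles and networks. Many genes of this machinery are known targets of serum response factor (SRF), a transcription factor that binds a short DNA element called the CArG box and that is driven in part by the actin-regulated coactivator MRTF-A, which is why fibroblasts stimulated with serum are a common setting to study them.

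Total counts ranged from 18026298 to 26265253 per library, and the raw count of a member in a library ranged from 874 to 61747. All 10 genes passed the count filter (a count above 1 in at least 3 libraries), which 18668 genes passed. Values below are normalized counts, in which each library was scaled by its total and its TMM factor to a common size, and log2FC is the log2 fold change fitted by edgeR. Tmpo, which encodes the Lap2 isoforms, had 982 to 1176 normalized counts in serum-starved and 607 to 767 in serum-stimulated Lap2-depleted cells, below the 2775 to 2885 and 3019 to 3264 of control siRNA treated cells. Its log2FC with Lap2 siRNA was -1.38 in 0.3% FBS and -2.17 in 15% FBS, a difference of -0.79 (edgeR adjusted p = 3.0e-06). Differences between the serum conditions in the siRNA effect thus compare unequal depletion of Tmpo, whose part was not tested. Of the marker genes of fibroblasts, 10 of 10 averaged 100 normalized counts or more, and 0 of the 7 epithelial, 0 of the 6 endothelial, 0 of the 6 leukocyte and 0 of the 7 muscle markers did (Krt18, Cldn4, Itgam, Myod1, Myog, Ckm, Myh2 and Myh6 were at 0 in all libraries). The summed level of the 10 fibroblast markers was lower in Lap2-depleted cells, at 526600 to 633100 normalized counts in 0.3% FBS and 639500 to 716000 in 15% FBS, against 871900 to 893500 and 900400 to 989900 in control siRNA treated cells. The sum does not give the direction of each marker. In 0.3% FBS Fn1 was higher in Lap2-depleted cells (log2FC 0.37) and Col1a1 lower (-0.78). The part of this sum in the results below was not tested. Scaling to total counts, in place of TMM, moved the median log2FC of all genes by -0.21 and -0.23 for serum stimulation with control and Lap2 siRNA and by 0.11 and 0.09 for Lap2 siRNA in 0.3% and 15% FBS. Library 1 of serum-starved Lap2-depleted cells gave the lowest value of its group for 8 of the 10 genes, and library 3 of serum-stimulated control siRNA treated cells the highest for 9 of the 10. Results that turned on the former are given with and without it.

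The promoters are shown because the CArG box is the element through which SRF acts. All 10 genes were matched by symbol to promoter sequences of RefSeq (GRCm38.p6), with 13 start sites, and the window from 250 bases before to 50 bases after each start was searched on both strands for the CArG box, for GGAATG (the element of TEAD factors) and for GGGCGG (the GC box). A CArG box was found in 2 of the 13 windows, at Vcl and at the second start site of Filip1l, and in 1.63% of all 32841 promoters of this length. GGAATG was found in 5 of the 13 windows (at Vcl, Flna, Actn4, Itgb1 and Palld) and in 14.7% of all promoters. GGGCGG was found in 8 of the 13 windows, at all genes but Tln1 and Filip1l, and in 35.7% of all promoters. No match of one motif overlapped a match of another. The 250 bases before both starts that hold a CArG box follow in 5′ to 3′ direction on the plus strand, at chr14:20929148-20929397 for Vcl and chr16:57548992-57549241 for Filip1l, with the CArG box in capitals.
Vcl: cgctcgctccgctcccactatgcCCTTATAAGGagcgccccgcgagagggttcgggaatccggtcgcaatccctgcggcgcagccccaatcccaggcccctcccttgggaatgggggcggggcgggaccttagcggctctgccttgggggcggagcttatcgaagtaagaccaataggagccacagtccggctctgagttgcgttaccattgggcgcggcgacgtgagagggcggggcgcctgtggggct
Filip1l: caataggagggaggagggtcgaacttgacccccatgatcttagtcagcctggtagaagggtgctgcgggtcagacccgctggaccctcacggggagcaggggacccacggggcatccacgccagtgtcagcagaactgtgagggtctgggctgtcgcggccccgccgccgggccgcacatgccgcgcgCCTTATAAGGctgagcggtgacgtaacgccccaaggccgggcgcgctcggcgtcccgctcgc
The 10 bases in capitals were identical in both genes. In Vcl they lie 227 to 218 bases before the start (chr14:20929171-20929180), and in Filip1l 62 to 53 bases before it (chr16:57549180-57549189). A match is a description of these letters and not a bound site, and SRF binding was not analysed here.

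Serum stimulation for 45 min raised all 10 genes in control siRNA treated cells, and Lap2-depleted cells had less of every one of them after stimulation. In control siRNA treated cells 10 of 10 rose and 0 fell (adjusted p under 0.05, edgeR's quasi-likelihood test), where 15.6% of all tested genes rose and 13.9% fell. Scaling to total counts left 9 of 10, without Tln1. Their median log2FC was 1.24, and that of all tested genes -0.01. In Lap2-depleted cells 7 of 10 rose and 0 fell, where 18.3% of all tested genes rose and 14.9% fell, with a median log2FC of 1.03 against 0.00. The 3 that did not pass the test were Tln1, Actn1 and Actn4. With scaling to total counts 6 of 10 rose in Lap2-depleted cells, without Flna, and the 3 fell, by a log2FC of -0.26, -0.29 and -0.23 (edgeR adjusted p = 0.0019, 0.0013 and 0.0061), beside the shift of -0.23 of all genes. The stimulated libraries lay above the starved ones without overlap for 10 genes with control siRNA (21.3% of all tested genes) and for 7 with Lap2 siRNA (22.6%).

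In starved cells Lap2 siRNA left some of the 10 genes higher and others lower, whereas after stimulation all 10 were lower. In 0.3% FBS 3 of 10 genes were higher (Actn4, Itga5 and Filip1l) and 3 were lower (Zyx, Flna and Itgb1), where 17.8% of all tested genes were higher and 18.6% lower, and the median log2FC of the 10 was 0.06 against 0.01 for all tested genes. In 15% FBS 0 of 10 were higher and 10 of 10 were lower, where 11.4% and 12.1% of all tested genes were, with a median of -0.55 against 0.02. Since the 10 were chosen with earlier results of these data known, their counts beside these shares are a description, here and above. Scaling to total counts left 7 of 10 lower, without Zyx, Tln1 and Actn4, whose log2FC stayed negative. The 3 libraries of Lap2-depleted cells lay below the 3 of control siRNA treated cells for all 10 genes in 15% FBS, as they did for 18.5% of all tested genes. In 0.3% FBS they lay above for 3 genes and below for 3, as for 21.3% and 22.1% of all tested genes. The fitted difference between the serum responses, that is the log2FC with Lap2 siRNA minus that with control siRNA, was negative and passed the test for 7 of 10 and was positive and passed it for 0 of 10, where 6.51% and 7.09% of all tested genes did. Both serum responses and both siRNA effects share libraries, so the comparisons are not independent of each other. In these bulk libraries fewer cells of a type and less RNA per cell cannot be told apart.

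**Figure D1:**
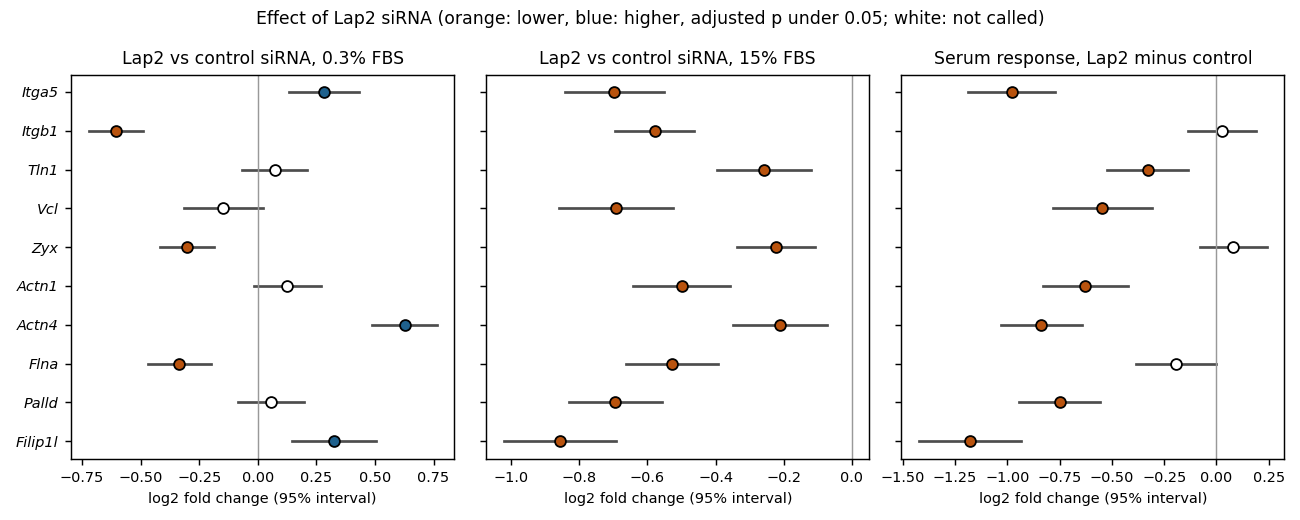
Log2 fold change of each of the 10 genes (points) with its 95% interval (lines) for Lap2 against control siRNA in 0.3% FBS, the same in 15% FBS, and the serum response with Lap2 siRNA minus that with control siRNA, with filled points for an edgeR adjusted p under 0.05. In 15% FBS the 10 points lie between -0.86 (Filip1l) and -0.21 (Actn4), whereas in 0.3% FBS they lie on both sides of 0, from -0.61 (Itgb1) to 0.63 (Actn4).

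Itga5 and Itgb1 encode the α and β subunits that pair into the fibronectin receptor α5β1. Itga5 (ENSMUSG00000000555, minus strand of mm10 chromosome 15, 103344286 to 103366763) had the largest fitted serum response of the 10 with either siRNA, close to that of Filip1l with control siRNA and of Palld with Lap2 siRNA. Its libraries 1, 2 and 3 had 4034, 3642 and 3578 normalized counts in serum-starved and 26758, 26913 and 32283 in serum-stimulated control siRNA treated cells. The libraries of Lap2-depleted cells had 4305, 4819 and 4564 in 0.3% FBS and 16947, 16886 and 19186 in 15% FBS. Thus every starved library of Lap2-depleted cells was above those of control siRNA treated cells, and every stimulated one was below. Serum raised Itga5 7.64-fold with control siRNA (log2FC 2.93, standard error 0.08, edgeR adjusted p = 1.9e-25) and 3.87-fold with Lap2 siRNA (log2FC 1.95, standard error 0.07, edgeR adjusted p = 9.4e-21). With Lap2 siRNA it stood at 122% of control in 0.3% FBS (log2FC 0.28, standard error 0.07, edgeR adjusted p = 0.0023). In 15% FBS it stood at 61.7% of control (log2FC -0.70, standard error 0.07, edgeR adjusted p = 3.5e-09). The serum responses differed by a log2FC of -0.98 (95% interval -1.19 to -0.77, edgeR adjusted p = 1.7e-08).

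Itgb1 (ENSMUSG00000025809, plus strand of mm10 chromosome 8, 128685654 to 128733200), whose product pairs with many α subunits, was lower in Lap2-depleted cells in both serum conditions. It had 16104, 16855 and 16873 normalized counts in serum-starved and 31000, 31697 and 33822 in serum-stimulated control siRNA treated cells. Lap2-depleted cells had 10991, 11047 and 10715 in 0.3% FBS and 21617, 21630 and 21385 in 15% FBS, and these values did not overlap those of control siRNA treated cells in either condition. The level was 65.7% of control in 0.3% FBS (log2FC -0.61, standard error 0.06, edgeR adjusted p = 1.9e-10) and 67.0% after stimulation (log2FC -0.58, standard error 0.06, edgeR adjusted p = 1.3e-09). Serum raised Itgb1 1.94-fold with control and 1.97-fold with Lap2 siRNA, and the difference between these responses was not detectable (log2FC 0.03, 95% interval -0.14 to 0.19, edgeR adjusted p = 0.89). From its lower starting level, the gain in normalized counts with Lap2 siRNA was 68.3% of that with control siRNA. The level of Itga5 relative to Itgb1, each per kilobase of exon, was 0.187 ± 0.0175 (SD, n = 3) in serum-starved and 0.735 ± 0.0474 in serum-stimulated control siRNA treated cells, and 0.346 ± 0.0193 and 0.679 ± 0.0549 in Lap2-depleted cells. The starved Lap2-depleted libraries (0.324 to 0.361) thus lay above the starved control libraries (0.175 to 0.207), and the stimulated groups overlapped.

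**Figure D2:**
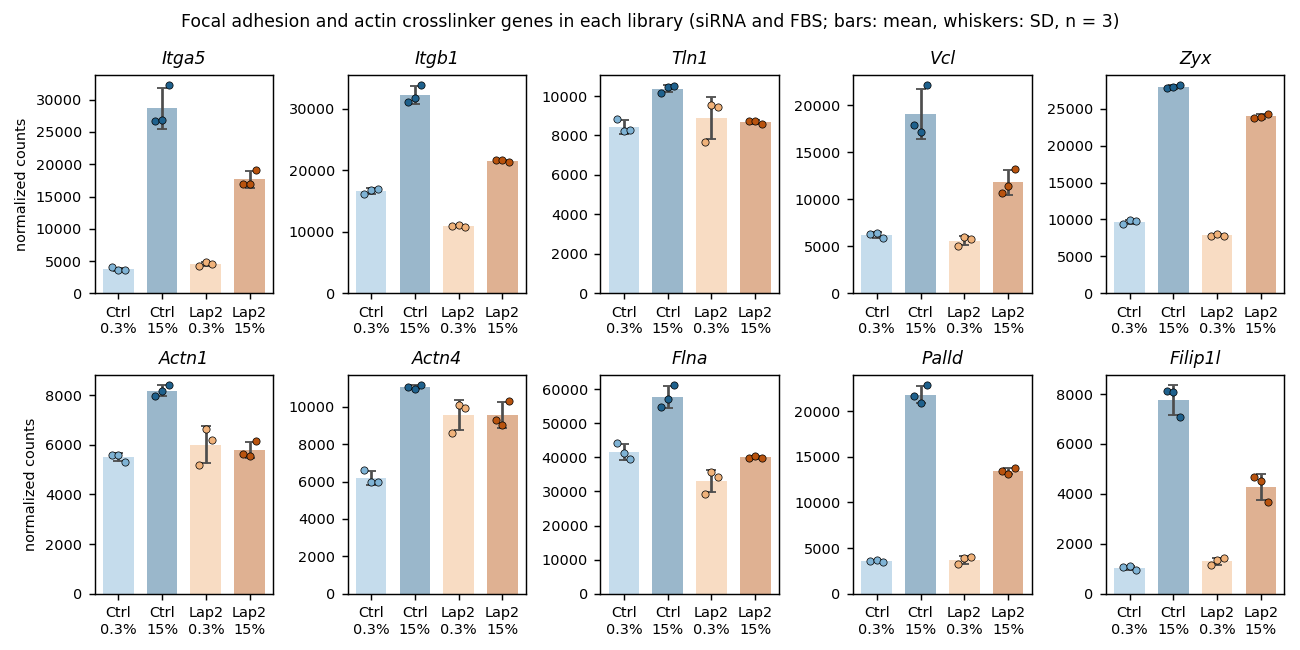
Normalized counts of the 10 genes in each of the 12 libraries (points), with group means (bars) and SD (whiskers, n = 3), for control (Ctrl) and Lap2 siRNA in 0.3% and 15% FBS. The stimulated Lap2-depleted libraries (dark orange) lie below the stimulated control libraries (dark blue) in all 10 panels, and those of Tln1, Actn1 and Actn4 lie within or near the range of the starved Lap2-depleted libraries (light orange).

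Of the linkers, Tln1 (ENSMUSG00000028465, minus strand of mm10 chromosome 4, 43531519 to 43562691) encodes talin, which binds integrin tails and activates the receptors, and had the smallest serum response of the 10 with control siRNA. It had 8848, 8215 and 8276 normalized counts in serum-starved and 10167, 10473 and 10494 in serum-stimulated control siRNA treated cells, a 1.23-fold rise (log2FC 0.30, standard error 0.07, edgeR adjusted p = 7.1e-04). Lap2-depleted cells had 7669, 9552 and 9419 in 0.3% FBS and 8743, 8720 and 8586 in 15% FBS, so the stimulated libraries fell inside the starved range (log2FC -0.03, 95% interval -0.17 to 0.11, edgeR adjusted p = 0.78). Tln1 was at 83.7% of control in 15% FBS (log2FC -0.26, standard error 0.07, edgeR adjusted p = 0.0044), and its serum responses differed by -0.33 (standard error 0.10, edgeR adjusted p = 0.017). Without library 1 of the starved Lap2-depleted cells, Tln1 was higher than control in 0.3% FBS (log2FC 0.18, edgeR adjusted p = 0.0030), where it had not passed the test with it (log2FC 0.07, edgeR adjusted p = 0.45), and it fell with serum in Lap2-depleted cells (log2FC -0.14, edgeR adjusted p = 0.024). Scaling to total counts ended the calls for its rise with control siRNA (log2FC 0.09, edgeR adjusted p = 0.32) and its lower level in 15% FBS (log2FC -0.17, edgeR adjusted p = 0.058).

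Vcl (ENSMUSG00000021823, plus strand of mm10 chromosome 14, 20929433 to 21033673) encodes vinculin, which reinforces the link from talin to actin. It rose from 6331, 6441 and 5832 normalized counts to 17884, 17184 and 22146 in control siRNA treated cells, and from 5045, 5970 and 5781 to 10688, 11456 and 13225 in Lap2-depleted cells. The starved groups overlapped and the stimulated groups did not. Vcl was at 90.3% of control in 0.3% FBS (log2FC -0.15, 95% interval -0.32 to 0.02, edgeR adjusted p = 0.17) and at 61.8% in 15% FBS (log2FC -0.69, standard error 0.08, edgeR adjusted p = 5.6e-08). Its serum responses, 3.07-fold and 2.11-fold, differed by a log2FC of -0.55 (95% interval -0.78 to -0.31, edgeR adjusted p = 0.0011), and by -0.64 to -0.42 with each library left out in turn. Exons of Ap3m1 on the opposite strand share 2090 bases with those of Vcl, 25.5% of its exonic length. The mean of Ap3m1 over the 12 libraries was 969 normalized counts, and its log2FC was 0.03 and 0.05 for Lap2 siRNA in 0.3% and 15% FBS.

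Zyx (ENSMUSG00000029860, plus strand of mm10 chromosome 6, 42349630 to 42360213) encodes zyxin, a LIM domain protein that brings actin assembly factors to adhesions and strained stress fibers, and it kept its serum response. It had 9370, 9884 and 9792 normalized counts in serum-starved and 27735, 27863 and 28205 in serum-stimulated control siRNA treated cells. Lap2-depleted cells had 7780, 7993 and 7766 in 0.3% FBS and 23666, 23906 and 24243 in 15% FBS, below control in both, with no overlap. These levels were 81.0% of control in 0.3% FBS (log2FC -0.30, standard error 0.06, edgeR adjusted p = 4.4e-05) and 85.7% after stimulation (log2FC -0.22, standard error 0.06, edgeR adjusted p = 0.0028), and the latter missed the threshold with scaling to total counts (log2FC -0.14, edgeR adjusted p = 0.070). Serum raised Zyx 2.89-fold with control and 3.05-fold with Lap2 siRNA (difference 0.08, 95% interval -0.08 to 0.24, edgeR adjusted p = 0.59). The response of Zyx with Lap2 siRNA thus stood beside 2.11-fold for Vcl, which had risen 3.07-fold with control siRNA, and the difference between the 2 genes was not tested.

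**Figure D3:**
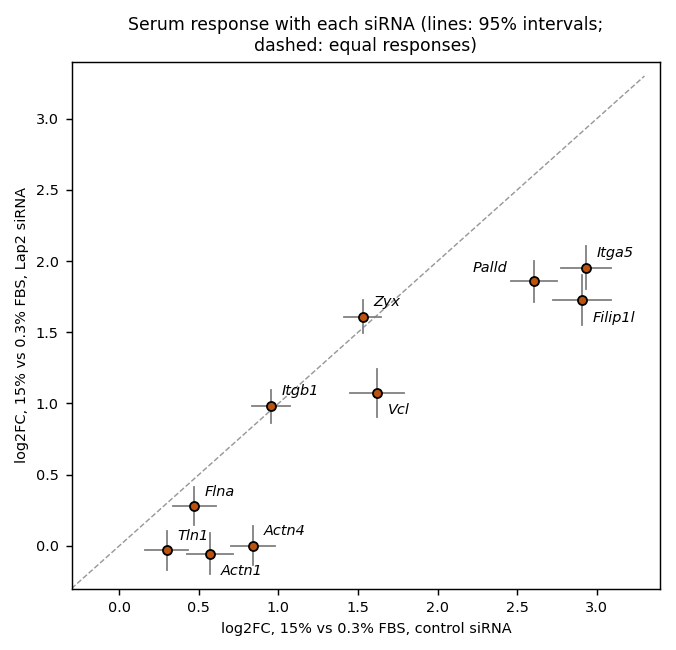
Log2 fold change of 15% against 0.3% FBS for the 10 genes with control siRNA (horizontal axis) and with Lap2 siRNA (vertical axis), with 95% intervals (lines) and a dashed line at equal responses. Zyx (1.53 and 1.61) and Itgb1 (0.95 and 0.98) lie at the dashed line, Itga5, Palld, Filip1l and Vcl lie below it with responses of 1.07 or more on both axes, and Tln1, Actn1 and Actn4 lie near 0 on the vertical axis.

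Among the crosslinkers, the α-actinin genes rose with serum in control siRNA treated cells and showed no detectable response in Lap2-depleted cells. Actn1 (ENSMUSG00000015143, minus strand of mm10 chromosome 12, 80167542 to 80260371) encodes α-actinin 1 of stress fibers and adhesions. It had 5602, 5573 and 5318 normalized counts in serum-starved and 7957, 8149 and 8395 in serum-stimulated control siRNA treated cells, and 5175, 6632 and 6206, then 5612, 5562 and 6148, in Lap2-depleted cells. Serum thus raised Actn1 with control siRNA (log2FC 0.57, standard error 0.07, edgeR adjusted p = 5.3e-08), while the starved and stimulated Lap2-depleted libraries overlapped (log2FC -0.06, 95% interval -0.20 to 0.09, edgeR adjusted p = 0.61). Its level was 70.7% of control in 15% FBS (log2FC -0.50, standard error 0.07, edgeR adjusted p = 1.4e-06), and the difference between the serum responses was -0.63 (edgeR adjusted p = 2.4e-05). Without library 1 of the starved Lap2-depleted cells it was higher than control in 0.3% FBS (log2FC 0.24, edgeR adjusted p = 0.000453, against 0.13 and 0.17 with it) and fell with serum in Lap2-depleted cells (log2FC -0.17, edgeR adjusted p = 0.015).

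Actn4 (ENSMUSG00000054808, minus strand of mm10 chromosome 7, 28893248 to 28962340) encodes α-actinin 4, which is also found in the nucleus, and it showed the largest increase of the 10 in starved Lap2-depleted cells. It had 6627, 5965 and 5970 normalized counts in serum-starved and 11051, 10985 and 11161 in serum-stimulated control siRNA treated cells. Lap2-depleted cells had 8623, 10113 and 9918 in 0.3% FBS and 9297, 9041 and 10344 in 15% FBS, so that the starved libraries were all above starved controls and the stimulated ones all below stimulated controls. Lap2 siRNA raised Actn4 to 154% of control in 0.3% FBS (log2FC 0.63, standard error 0.07, edgeR adjusted p = 3.2e-09). After stimulation it was at 86.4% of control (log2FC -0.21, standard error 0.07, edgeR adjusted p = 0.019), a call that was lost with scaling to total counts (log2FC -0.12, edgeR adjusted p = 0.19) and without library 2 or 3 of the stimulated control or library 1 or 2 of the stimulated Lap2-depleted cells (edgeR adjusted p from 0.051 to 0.13). The serum response was 1.79-fold with control and 1.00-fold with Lap2 siRNA (95% interval of the latter log2FC -0.14 to 0.14), a difference of -0.84 (edgeR adjusted p = 8.3e-08). The ratio of Actn1 to Actn4 per kilobase of exon was 0.986 ± 0.0493 (SD, n = 3) in serum-starved and 0.817 ± 0.0182 in serum-stimulated control siRNA treated cells, and 0.695 ± 0.0308 and 0.669 ± 0.0116 in Lap2-depleted cells. The 6 ratios of Lap2-depleted libraries, 0.658 to 0.726, all lay below the 6 of control libraries, 0.797 to 1.03.

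**Figure D4:**
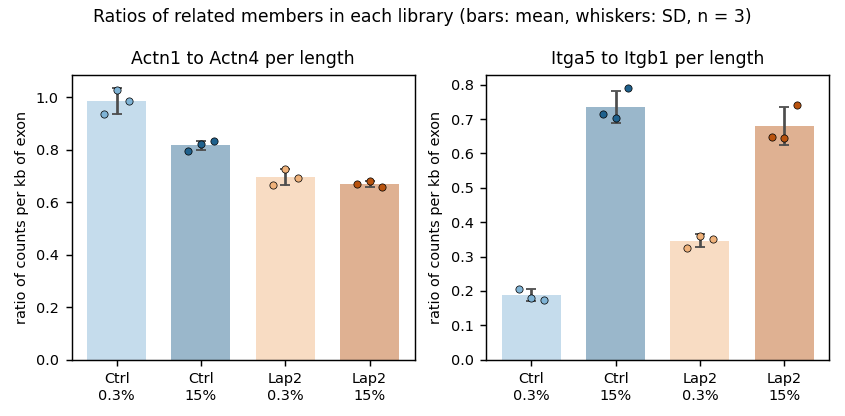
Ratio of Actn1 to Actn4 and of Itga5 to Itgb1, each as counts per kilobase of exon, in each library (points), with group means (bars) and SD (whiskers, n = 3), for control (Ctrl) and Lap2 siRNA in 0.3% and 15% FBS. The Actn1 to Actn4 ratio is lower in all Lap2-depleted libraries, and the Itga5 to Itgb1 ratio is higher in starved Lap2-depleted libraries (mean 0.346) than in starved controls (0.187).

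Flna (ENSMUSG00000031328, minus strand of mm10 chromosome X, 74223461 to 74249820) encodes filamin A, a long dimer that crosslinks actin into orthogonal networks and binds integrin tails. It had 44187, 41266 and 39462 normalized counts in serum-starved and 54789, 57115 and 61183 in serum-stimulated control siRNA treated cells, and 29380, 35581 and 34129, then 39727, 40541 and 39798, in Lap2-depleted cells. The stimulated Lap2-depleted libraries were thus near the starved controls. Flna was at 79.3% of control in 0.3% FBS (log2FC -0.33, standard error 0.07, edgeR adjusted p = 1.0e-04) and at 69.4% after stimulation (log2FC -0.53, standard error 0.07, edgeR adjusted p = 1.6e-07). Serum raised it 1.39-fold with control (edgeR adjusted p = 5.6e-07) and 1.21-fold with Lap2 siRNA (edgeR adjusted p = 0.0011, or 0.62 at a log2FC of 0.05 with scaling to total counts). The responses differed by -0.19 and did not pass the test (edgeR adjusted p = 0.19), but they did without library 1 of the starved Lap2-depleted cells (log2FC -0.30, edgeR adjusted p = 0.000924).

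Palld (ENSMUSG00000058056, minus strand of mm10 chromosome 8, 61511433 to 61902690) encodes palladin, which bundles actin and binds α-actinin. It rose from 3585, 3676 and 3479 normalized counts to 21658, 20954 and 22852 in control siRNA treated cells, and from 3238, 3943 and 3988 to 13490, 13174 and 13796 in Lap2-depleted cells. The starved groups overlapped (log2FC 0.06, 95% interval -0.08 to 0.20, edgeR adjusted p = 0.58, and 0.16 with an adjusted p of 0.012 without library 1 of the Lap2-depleted cells). The stimulated groups stood apart, with Lap2-depleted cells at 61.8% of control (log2FC -0.69, standard error 0.07, edgeR adjusted p = 8.1e-10). The serum response was 6.09-fold with control and 3.62-fold with Lap2 siRNA (difference -0.75, 95% interval -0.94 to -0.56, edgeR adjusted p = 6.8e-07). In normalized counts, the gain with Lap2 siRNA was 53.5% of that with control siRNA, beside 52.7% for Itga5 and 48.1% for Vcl.

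Filip1l (ENSMUSG00000043336, plus strand of mm10 chromosome 16, 57353093 to 57573126) is related to the filamin-interacting protein FILIP1 and was the least abundant of the 10 in starved cells. It rose from 1068, 1092 and 943 normalized counts to 8118, 8084 and 7076 in control siRNA treated cells, and from 1133, 1345 and 1412 to 4666, 4509 and 3689 in Lap2-depleted cells. The direction of the siRNA effect turned with serum. Starved Lap2-depleted cells had 125% of control (log2FC 0.32, standard error 0.09, edgeR adjusted p = 0.0035), with every library above every control library, and stimulated ones 55.3% (log2FC -0.86, standard error 0.08, edgeR adjusted p = 6.1e-10), with every library below. The serum response was 7.50-fold with control and 3.31-fold with Lap2 siRNA, and the difference of -1.18 (95% interval -1.42 to -0.94, edgeR adjusted p = 8.7e-09) was the largest of the 10. Its second start site, with the CArG box shown above, and its first start site are counted together in a value per gene, so the counts do not tell which was used.

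The order of the levels, given as CPM (library-scaled counts) per kilobase of exon, changed with serum and siRNA. The length joins all annotated exons of a gene, whichever transcripts were used, so the order between genes within a group depends on the annotation. Overlap here refers to the spread between libraries alone. In starved control siRNA treated cells it was Flna (210), Itgb1 (193), Zyx (85.2), Actn4 (47.9), Actn1 (47.1), Tln1 (40.9), Itga5 (36.1), Vcl (35.9), Palld (16.5) and Filip1l (9.19), in which Actn4 and Actn1, and Itga5 and Vcl, overlapped. After stimulation Itgb1 (374) led, followed by Flna (291) and Itga5 (275), which overlapped, and Tln1 (50.2) came last. In starved Lap2-depleted cells Flna (167) and Itgb1 (127) again led, followed by Actn4 (73.9) and Zyx (69.0), which overlapped. In stimulated Lap2-depleted cells the order was Itgb1 (250), Zyx (211), Flna (202), Itga5 (170), then Actn4 (74.0), Vcl (68.2) and Palld (62.1), of which Actn4 and Vcl, and Vcl and Palld, overlapped, and Filip1l (38.1) came last. The 10 genes together took 0.490% to 0.521% of the counts of starved and 0.932% to 1.01% of stimulated control libraries, and 0.442% to 0.517% and 0.695% to 0.727% of those of Lap2-depleted cells. The coefficient of variation of a gene between the 3 libraries of a group ranged from 0.64% to 14.1%, and its median over the 10 genes was highest, at 9.27%, in starved Lap2-depleted cells.

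Among themselves the 10 genes followed each other to unlike degrees over the 12 libraries. Pearson r of log2 CPM over the 45 pairs ranged from 0.32 for Flna and Actn4 to 1.00 for Itga5 and Palld, with a median of 0.75, as a description over 12 libraries that share their 4 groups. Among the 10449 genes that averaged 100 normalized counts or more, the most alike in pattern to Itga5 were Prkab2 (r = 0.998), Plk2 (0.997) and Gfod1 (0.996), and to Palld they were Ppp1r15b, Inhba and Plk2 (0.997 each). Filip1l was most like Kank1 (0.992), Palld and Plk2 (0.991 each), so that Plk2 was among the nearest 3 of all of these. Zyx was most like Lima1 (0.998), a LIM domain protein that bundles actin, and Itgb1 was most like Tpm1 (0.996), a tropomyosin that coats actin filaments. Vcl was nearest to Rassf3 and Prepl (0.994 each) and Ppp1r12a (0.993), and Flna to Srebf2 (0.994), Osbp (0.985) and Fasn (0.982). Tln1 and Actn1 each had the other among their nearest 3 (0.943), beside Nid1 (0.945) for Tln1 and Polk (0.963) for Actn1, and Actn4 was nearest to 4931406P16Rik (0.984).

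The 4 wider lists place the 10 genes in the adhesion machinery, beginning with the ligands outside the cell. Of all tested genes, 15.6% rose and 13.9% fell with serum under control siRNA, while 18.3% rose and 14.9% fell in Lap2-depleted cells, and with Lap2 siRNA 17.8% were higher and 18.6% lower in 0.3% FBS and 11.4% and 12.1% in 15% FBS. The counts of each list stand beside these shares as a description, and no difference between a list and other genes was tested. With scaling to total counts, 1632 of the 18668 tested genes rose and 5847 fell with serum under control siRNA. In Lap2-depleted cells 1658 rose and 5951 fell. With that scaling, 4692 were higher and 2638 lower with Lap2 siRNA in 0.3% FBS, and 3471 and 1678 in 15% FBS. List counts with scaling to total counts stand beside these numbers and not beside the shares. Of 15 tested integrin ligands, 8 rose and 0 fell with serum with control siRNA, and 8 rose and 2 fell with Lap2 siRNA (5 and 2, and 3 and 5, with scaling to total counts). Lap2 siRNA left 4 of them higher and 7 lower in 0.3% FBS, but just 1 higher and 10 lower in 15% FBS (median log2FC -0.25 against 0.02 for all tested genes, and 8 and 6, then 1 and 7, with scaling to total counts). The one that was higher in 15% FBS was Spp1, which encodes osteopontin (log2FC 1.43, and 2.29 in 0.3% FBS), and the lower ones included Col1a1 (-0.58), Postn (-0.58) and Thbs1 (-0.44). Fn1, which encodes fibronectin, the ligand of α5β1, was higher in starved Lap2-depleted cells (log2FC 0.37, edgeR adjusted p = 9.2e-05) and lower in stimulated ones (log2FC -0.23, edgeR adjusted p = 0.018), and its serum responses differed by -0.61 (edgeR adjusted p = 6.6e-05). Of 16 further integrin subunits, 2 rose and 0 fell with serum with control siRNA (Itgav, log2FC 0.84, and Itga6, 0.68), and 3 rose and 5 fell with Lap2 siRNA, where scaling to total counts gave 2 and 3, and 1 and 9. With Lap2 siRNA 6 were higher and 2 lower in 0.3% FBS, whereas 2 were higher (Itgb5 and Itga8, 0.32 each) and 5 lower in 15% FBS, the latter led by Itgb3 (-1.48) and Itga9 (-1.11).

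Of 37 tested adhesion plaque proteins, 18 rose and 2 fell with serum with control siRNA, and 23 rose and 0 fell with Lap2 siRNA. Scaling to total counts gave 12 and 9, and 11 and 6, beside the numbers of all tested genes with that scaling given above. In Lap2-depleted cells 5 were higher and 22 lower in 0.3% FBS, whereas none (0) was higher and 21 were lower in 15% FBS, with medians of -0.29 and -0.23, and scaling to total counts gave 6 and 17, then 0 and 15. The genes lower in both included Fblim1, a filamin-binding LIM protein (log2FC -1.56 and -1.44), and Tns2, a tensin (-1.20 and -0.87). Kank1, which binds talin, was, like Itga5 and Filip1l, higher in 0.3% FBS (0.68) and lower in 15% FBS (-0.96), and its serum responses of 3.01 and 1.37 differed by -1.64 (edgeR adjusted p = 3.1e-12). Over this list the difference between the serum responses passed the test as positive for 6 of 37 and as negative for 6 of 37 (7.09% and 6.51% of all tested genes). It did so for 3 and 6 of the 15 ligands, 1 and 4 of the 16 integrin subunits, and 3 and 2 of 18 crosslinkers and bundlers. The median difference was 0.05 for the plaque proteins, -0.10 for the ligands, -0.42 for the integrin subunits and -0.05 for the crosslinkers, beside -0.59 for the 10 genes. Of 18 tested crosslinkers and bundlers, 9 rose and 1 fell with control siRNA and 10 rose and 2 fell with Lap2 siRNA (7 and 6, and 7 and 4, with scaling to total counts). With Lap2 siRNA 2 were higher and 9 lower in 0.3% FBS, whereas 0 were higher but 10 lower in 15% FBS (median -0.26, and 0 and 8 with scaling to total counts). In these lists, a count of 0 was 0 by DESeq2 too, and at an unadjusted p under 0.05 it was 0 for all but the integrin subunits that fell with serum with control siRNA (2). Flnc, another filamin, was lower in 15% FBS (log2FC -0.42), and so were Dbn1, which encodes drebrin (-0.49), and Actn3 (-0.63). The medians of these lists in 15% FBS, from -0.26 to -0.08, stand beside -0.55 for the 10 genes and 0.02 for all tested genes.

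**Figure D5:**
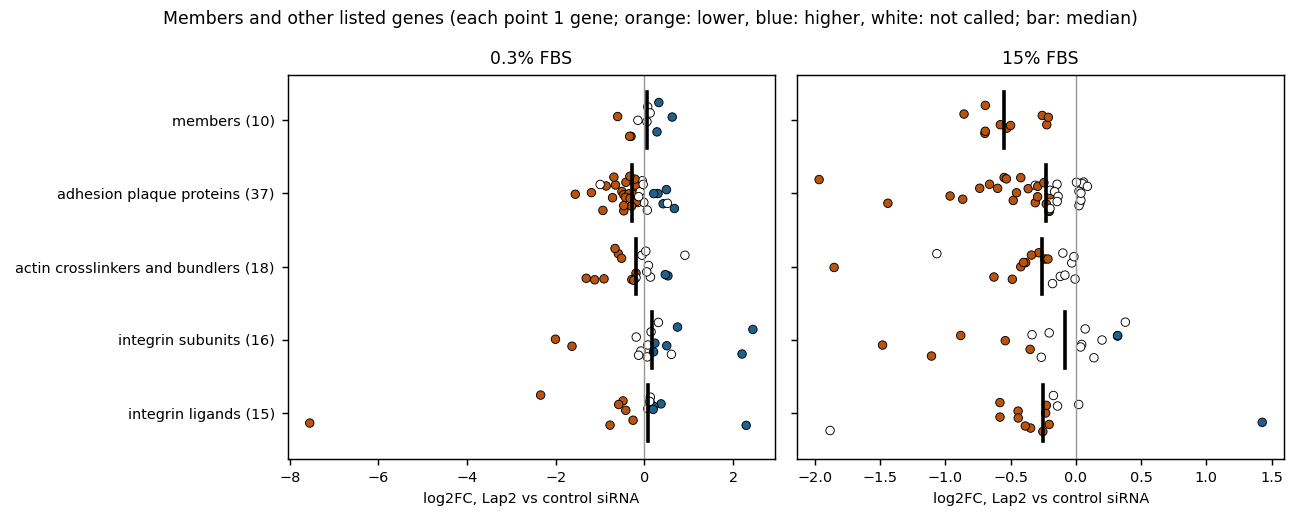
Log2 fold change of Lap2 against control siRNA for each tested gene (points) of the 10 genes and of the 4 wider lists in 0.3% FBS and 15% FBS, filled where the edgeR adjusted p was under 0.05, with the median of each list (bars) and the number tested in brackets. In 15% FBS the 10 genes all lie below 0, and the wider lists hold 0 to 2 genes that were called higher.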

How the data were processed

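Ribosomal RNA was depleted from total RNA and directional libraries were made and sequenced. The authors aligned the reads to mm10 with TopHat2, assigned them to genes with HTSeq, and deposited raw counts per gene with coordinates. The tool versions, the annotation release and the strand setting of the counting are not given in the sources used here. How reads of overlapping genes on opposite strands were assigned is therefore not known. Exons of Zyx, Tln1 and Actn4 share 4.38%, 3.67% and 5.16% of their length with a gene on the other strand, and those of Vcl 25.5%. Those of Actn1 share 1.59% and 6.56% with different genes on the other strand.

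Counts were taken as deposited. The condition came from the labels of each sample and the 45 min of stimulation from the study's methods. In R 4.3.3, edgeR 4.0.16 was used for TMM factors, a single fit of all 12 libraries in their 4 groups, and the quasi-likelihood test. It covered the 18668 genes whose count was above 1 in 3 or more libraries, with Benjamini-Hochberg adjustment over all of them and a threshold of 0.05. In all, 5 contrasts were tested, namely 15% against 0.3% FBS within either siRNA, Lap2 against control siRNA within either serum condition, and the difference between the serum responses. The exact test of 3 libraries against 3 cannot give a p below 0.1 and was not used. Exon lengths and overlaps came from GENCODE M21 (mm10) and promoters from RefSeq (GRCm38.p6). Log2 CPM used a prior count of 2. Tables and figures were made in Python 3.11.15 with pandas 2.3.3 and matplotlib 3.10.9. The edgeR fit was also run on counts simulated from its own model, for Lap2 against control siRNA in 15% FBS. The outcome is not given here, and such counts cannot show how the fit behaves where the data depart from that model.

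The members and the lists were chosen with earlier results of these data known. The genes named are the 10 members, Tmpo, Gapdh, the 3 most alike in pattern to each member, at most 3 genes per list, direction and contrast with the largest called log2FC among those averaging 100 normalized counts or more, and Ap3m1 for its overlap with Vcl. Gapdh passed the test in none of the 5 contrasts (log2FC -0.20 to 0.08). A listed ligand, Nov, had no matching identifier. Identical counts were found in 0 pairs of libraries. The alternatives were DESeq2 1.42.0, scaling to total counts, upper-quartile factors, filterByExpr, no filter, a fit restricted to the groups compared, a block for the replicate number, and leaving out each library. Other assays of the study were not analysed here. The values of 1 gene that the rule would name are not reported here.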

Additional observations from a re-analysis of the deposited data

Results flagged for a closer look

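For 7 of the 10 genes the serum response differed between the siRNAs by a test of the difference itself (edgeR's quasi-likelihood test of the interaction, adjusted over 18668 genes). All 7 differences were negative, where 6.51% of all tested genes passed with a negative and 7.09% with a positive difference. The 10 genes were chosen with earlier results of these data known, so this count is a description. Tmpo was itself lower in stimulated than in starved Lap2-depleted cells, so the responses were compared at unequal depletion. In log2FC, the response with Lap2 siRNA minus that with control siRNA was -1.18 for Filip1l (adjusted p = 8.7e-09), -0.98 for Itga5 (1.7e-08), -0.84 for Actn4 (8.3e-08), -0.75 for Palld (6.8e-07), -0.63 for Actn1 (2.4e-05), -0.55 for Vcl (0.0011) and -0.33 for Tln1 (0.017). For Filip1l, Itga5 and Actn4 the siRNA effect had opposite signs in the serum conditions, higher in 0.3% FBS and lower in 15% FBS, and both passed the test. For Actn4 the call in 15% FBS was lost with scaling to total counts (edgeR adjusted p = 0.19) and without some single libraries. Groups of 3 libraries were not searched for outlying values.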

How the results depend on the processing

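The 50 results of the 10 genes in the 5 contrasts were recomputed under 19 alternatives, 940 values in all. In 903 of these the direction and the side of the threshold were unchanged. With the sign unchanged, the call was lost in 9 and gained in 10. The sign changed in 18, among which the serum response of Actn4 with Lap2 siRNA under total counts also gained a call (edgeR adjusted p = 0.0061). Direction and call were kept under every alternative by 37 of the 50 results. The replicate block changed the call of none of them (50 of 50 the same). The numbers were not taken to pair the libraries, since the deviations of same-numbered libraries from their group means had correlations of -0.12 to 0.10 over 18 pairs (0 above 0.1), and a library correlated best with its own number in 7 of 36 comparisons. Scaling to total counts moved the number of genes that fell with serum in Lap2-depleted cells from 0 to 3 (Tln1, Actn1 and Actn4) and of those higher with Lap2 siRNA in 0.3% FBS from 3 to 5 (with Tln1 and Actn1), beside the shift of all genes given above. With each library left out in turn these counts ranged from 0 to 2 and from 3 to 6, the highest without library 1 of the starved Lap2-depleted cells, and the cause was not tested. Counts of 0 were also 0 with DESeq2 and at an unadjusted p under 0.05 from edgeR. With a library left out, the number lower in 15% FBS ranged from 9 to 10 and that with a smaller serum response from 7 to 8, and with total counts they were 7 and 7. The sign changed under some alternative for 4 results. The serum response of Actn4 with Lap2 siRNA was -0.0161 with DESeq2, -0.23 with total counts, -0.11 with upper-quartile factors, -0.00863 with filterByExpr, -0.00672 with no filter, -0.00711 with the groups compared alone, and from -0.0828 to 0.0402 with a library left out. Those of Tln1 and Actn1 ranged from -0.14 to 0.00959 and from -0.17 to 0.00744 with a library left out, and the difference between the serum responses of Itgb1 from -0.0168 to 0.0703. With total counts, 1632 genes were higher and 5847 lower for serum with control siRNA (2915 and 2597 with TMM), 1658 and 5951 with Lap2 siRNA (3420 and 2777), and for Lap2 siRNA 4692 and 2638 in 0.3% FBS (3330 and 3480) and 3471 and 1678 in 15% FBS (2125 and 2250). With raw counts of at least 874 per library and gene, the standard errors of these log2FC were 0.06 to 0.12.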
